A study of Mus musculus with 8 samples.

Results

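The 10 genes described here encode the chains of the MHC class I and class II molecules and the proteins that load or control them: H2-Aa, H2-Ab1, H2-Eb1, H2-DMa, Cd74 and Ciita on the class II side, and H2-K1, H2-D1, B2m and Tap1 on the class I side. They were chosen by gene name from the 43346 genes in the count table, and all 10 passed the filter on low counts with 43 to 3969 counts in every mouse. Ventricular mRNA came from male C57BL/6 mice that at the age of 7 weeks received 1000000 cells of LLC1, a Lewis lung carcinoma line that grows in this strain, or PBS vehicle. There were 4 mice per group and the hearts were taken on day 14. No genetic change is given for either group, the tumor cells were placed under the skin of the flank, and only male mice were sequenced. Mice are named by group and replicate code, such as PBS 1-1.

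MHC class II molecules present peptides from endocytosed proteins to CD4 T cells and are made mainly by dendritic cells, macrophages and B cells. Class I molecules present peptides from the cytosol to CD8 T cells and are found on nearly all nucleated cells, with endothelial and immune cells among the richest sources in the heart. Ciita is the coactivator that switches on the class II genes, Nlrc5 is its class I counterpart, and interferon-gamma raises both sets.

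In the hearts of LLC1 tumor-bearing mice, all 10 MHC genes had lower fitted levels than in PBS-injected mice, with log2 fold changes between -0.59 and -0.30 and a median of -0.45. The median over the 16111 genes tested was -0.01. H2-Aa and B2m fell by edgeR's quasi-likelihood test with Benjamini-Hochberg adjustment (FDR under 0.05), so 2 of 10 were lower, where 4.61% of all genes tested were lower, 4.12% were higher and 8.73% changed in either direction. Another 7 had an unadjusted p under 0.05 with an FDR between 0.0523 and 0.149. Of all 16111 genes tested, 4103 had an unadjusted edgeR p under 0.05. Tap1 did not pass either limit. The count moved with single mice, as did that over all genes. No MHC gene passed the edgeR test without LLC1 1-3, LLC1 1-5, LLC1 2-2 or PBS 1-3. Without PBS 2-1, LLC1 1-2 or PBS 2-5, 1, 2 and 3 passed. In the same order of mice, 356, 398, 481, 330, 590, 421 and 828 of all genes were lower, of 16225 to 16357 tested. With every mouse 743 of 16111 were lower.

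Library totals ran from 15342214 to 19747596 counts in LLC1 mice and from 12480706 to 16192158 in PBS mice, and levels are given as counts per 1000000 (CPM) after TMM scaling. PBS 1-1 stood apart from the other PBS mice on the second principal component (35.3 against -23.3 to -10.8, with LLC1 mice between -3.2 and 8.71). It was the lowest PBS mouse for 9 of the 10 MHC genes and the highest for Ciita. The results for each of the 10 genes, and the main list counts, are therefore also given without it. Leaving out the lowest PBS mouse raises the PBS means of those 9 genes by construction, so these values show how far the results rest on PBS 1-1 and are not independent support. In that comparison, the only 1 of the 8 that left out a mouse to give over 3 calls, 9 of 10 genes were lower, with Ciita as the exception, against 6.38% lower and 5.56% higher of the 16319 genes then tested, and the median of the 10 was -0.57. In these bulk samples, fewer cells of a type and less RNA per cell cannot be told apart.

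The bases just upstream of the transcription start are shown for 4 of the genes, because they hold the elements through which class II and class I genes are known to be controlled. RefSeq (GRCm38.p6) gave a promoter for 7 of the 10 genes, and each line below holds the 200 bases before the start, 5′ to 3′ on the gene's strand. The motifs searched on both strands were CCAAT (the Y box, which binds NF-Y), GCAAC (a core of the X1 box, which binds RFX), TGACG (a core of the cyclic AMP response element, found in the X2 box), and the interferon elements GAANNGAAA, GAAANNGAAA and TTCNNNGAA. Capitals mark the matches.
H2-Aa, chr17:34287824-34288023, minus strand: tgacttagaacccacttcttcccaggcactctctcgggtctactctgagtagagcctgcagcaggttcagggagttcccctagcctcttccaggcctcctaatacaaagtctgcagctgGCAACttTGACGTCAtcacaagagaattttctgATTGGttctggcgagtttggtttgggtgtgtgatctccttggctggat
H2-Eb1, chr17:34305667-34305866, plus strand: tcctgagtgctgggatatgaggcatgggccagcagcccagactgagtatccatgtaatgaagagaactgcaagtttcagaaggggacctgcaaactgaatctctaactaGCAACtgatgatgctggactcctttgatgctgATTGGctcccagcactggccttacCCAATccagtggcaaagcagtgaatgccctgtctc
H2-K1, chr17:34000334-34000533, minus strand: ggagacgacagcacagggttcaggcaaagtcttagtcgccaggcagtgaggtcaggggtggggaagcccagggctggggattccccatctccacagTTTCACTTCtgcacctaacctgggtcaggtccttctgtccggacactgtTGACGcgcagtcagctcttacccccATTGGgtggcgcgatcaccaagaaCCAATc
B2m, chr2:122147487-122147686, plus strand: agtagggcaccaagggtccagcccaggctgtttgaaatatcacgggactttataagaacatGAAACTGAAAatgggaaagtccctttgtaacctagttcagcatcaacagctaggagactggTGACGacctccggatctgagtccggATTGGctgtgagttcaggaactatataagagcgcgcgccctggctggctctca

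In H2-Aa the GCAAC match began 81 bases before the start, an overlapping pair of TGACG matches on opposite strands followed at 74 and 71, and the inverted CCAAT box began at 48. H2-Eb1 had the same order of GCAAC at 91 and inverted CCAAT at 59. H2-K1 and H2-D1 each carried an inverted GAANNGAAA, TGACG and a pair of CCAAT boxes, with the RefSeq start of H2-D1 lying 364 bases from the deposited one. B2m carried GAAANNGAAA at 139, TGACG at 78 and an inverted CCAAT at 53. These letters are common: of 32851 promoters, 29.3% held CCAAT, 25.2% GCAAC, 15.7% TGACG, 5.00% GAANNGAAA, 2.27% GAAANNGAAA and 5.49% TTCNNNGAA within the same 200 bases. A GCAAC and a CCAAT whose starts lay 10 to 40 bases apart, in either strand and order, occurred in 2.89%. Among the 7 MHC genes with a RefSeq promoter, H2-Aa, H2-Eb1 and H2-D1 held such a pair. The RefSeq start of H2-DMa, also among the 7, lay 9664 bases from the deposited one. A match describes the sequence and does not show that a factor was bound.

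The class II chains come first. H2-Aa (chr17:34282744-34287827, mm10) encodes the alpha chain of the I-A molecule. It was at 40.2, 24.6, 31.7 and 36.0 CPM in LLC1 1-2, 1-3, 1-5 and 2-2 and at 38.8, 54.0, 60.7 and 44.9 CPM in PBS 1-1, 1-3, 2-1 and 2-5. The groups overlapped only where LLC1 1-2 lay above PBS 1-1. The means were 33.1 ± 6.65 and 49.6 ± 9.70 CPM (SD, n = 4 per group), the fold was 0.667 with a 95% interval of 0.528 to 0.842, and the log2 fold change was -0.59 (SE 0.15, edgeR FDR 0.0374). The exact 2-sided permutation test over 70 arrangements, whose smallest p is 0.0286, gave p = 0.0571. Without PBS 1-1 the log2 fold change was -0.68 (edgeR FDR 0.00793). The call was lost when LLC1 1-3, LLC1 1-5, LLC1 2-2, PBS 1-3 or PBS 2-1 was left out, with edgeR FDR 0.0963, 0.0987, 0.0632, 0.109 and 0.0964, and with every mouse under robust empirical Bayes (FDR 0.0631).

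H2-Ab1 (chr17:34263209-34269418) encodes the beta chain that pairs with H2-Aa. Its levels were 26.9, 19.2, 22.3 and 27.7 CPM in the LLC1 mice and 25.2, 32.8, 41.4 and 37.1 CPM in the PBS mice, in the same order of mice as above. PBS 1-1 lay among the LLC1 mice and the other 3 PBS mice lay above all of them. The log2 fold change was -0.51 (SE 0.15, edgeR FDR 0.0534), just outside the limit, and it passed without PBS 1-1 (-0.63, FDR 0.00581).

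H2-Eb1 (chr17:34305877-34316199) encodes the beta chain of the I-E molecule. C57BL/6 mice lack the matching alpha chain, so this transcript is made without a partner for the cell surface. It was at 36.9, 25.8, 32.0 and 36.6 CPM in LLC1 mice and at 36.1, 49.6, 55.0 and 41.6 CPM in PBS mice, and PBS 1-1 was again the one PBS mouse within the LLC1 range. The log2 fold change was -0.47 (SE 0.14, edgeR FDR 0.0523), and -0.57 without PBS 1-1 (FDR 0.00990). It also passed without PBS 2-5 (FDR 0.0466).

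The chains kept similar proportions from mouse to mouse. Per base of transcript, the ratio of H2-Eb1 to H2-Aa was 1.43 to 1.47 in PBS mice and 1.45 to 1.66 in LLC1 mice, and that of H2-Ab1 to H2-Aa was 0.696 to 0.945 and 0.764 to 0.891. Both pairs of ranges overlapped.

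Among the class II loading genes, H2-DMa (chr17:34135182-34139101) encodes a chain of the H2-M molecule, which exchanges peptides in the class II groove. Its levels were 3.57, 3.36, 3.23 and 3.42 CPM in LLC1 mice and 3.69, 4.84, 6.71 and 4.55 CPM in PBS mice. It was the only 1 of the 10 whose groups did not overlap, against 8.27% of all genes tested that lay wholly lower in LLC1, 8.89% wholly higher and 17.2% in either direction. Once PBS 1-1 was left out, 9 of the 10 lay wholly lower in LLC1, against 12.2% of genes. The exact permutation p was 0.0286, the smallest possible with 4 mice per group, while the edgeR estimate of -0.56 (SE 0.18) had an FDR of 0.0708, and -0.66 with FDR 0.0188 without PBS 1-1. The CV was 4.22% in LLC1 mice and 25.7% in PBS mice. Exons of Brd2 on the opposite strand cover 10.4% of the H2-DMa exon bases in GENCODE M21. The strand setting and annotation release of the counting were not given in the sources used here. Whether this overlap lies within the counted exons was not tested.

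Cd74, on chromosome 18, encodes the invariant chain that escorts new class II molecules to the endosome. It was at 102, 72.8, 88.3 and 97.2 CPM in LLC1 mice and at 79.3, 127, 150 and 124 CPM in PBS mice. PBS 1-1 fell below 3 of the 4 LLC1 mice, and the other PBS mice lay above all 4. With every mouse the log2 fold change was -0.42 (SE 0.16, edgeR FDR 0.129), and without PBS 1-1 it was -0.57 (FDR 0.00487).

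Ciita (chr16:10488178-10527564) encodes the class II transactivator. It was at 3.64, 3.29, 3.28 and 3.47 CPM in LLC1 mice and at 5.32, 3.37, 4.94 and 4.43 CPM in PBS mice. Here PBS 1-3, not PBS 1-1, lay within the LLC1 range. The log2 fold change was -0.40 (SE 0.16, edgeR FDR 0.138), and Ciita was the only 1 of the 10 whose change shrank without PBS 1-1 (-0.32, FDR 0.216). It passed the limit in none of the 8 comparisons that left out a mouse.

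**Figure D1:**
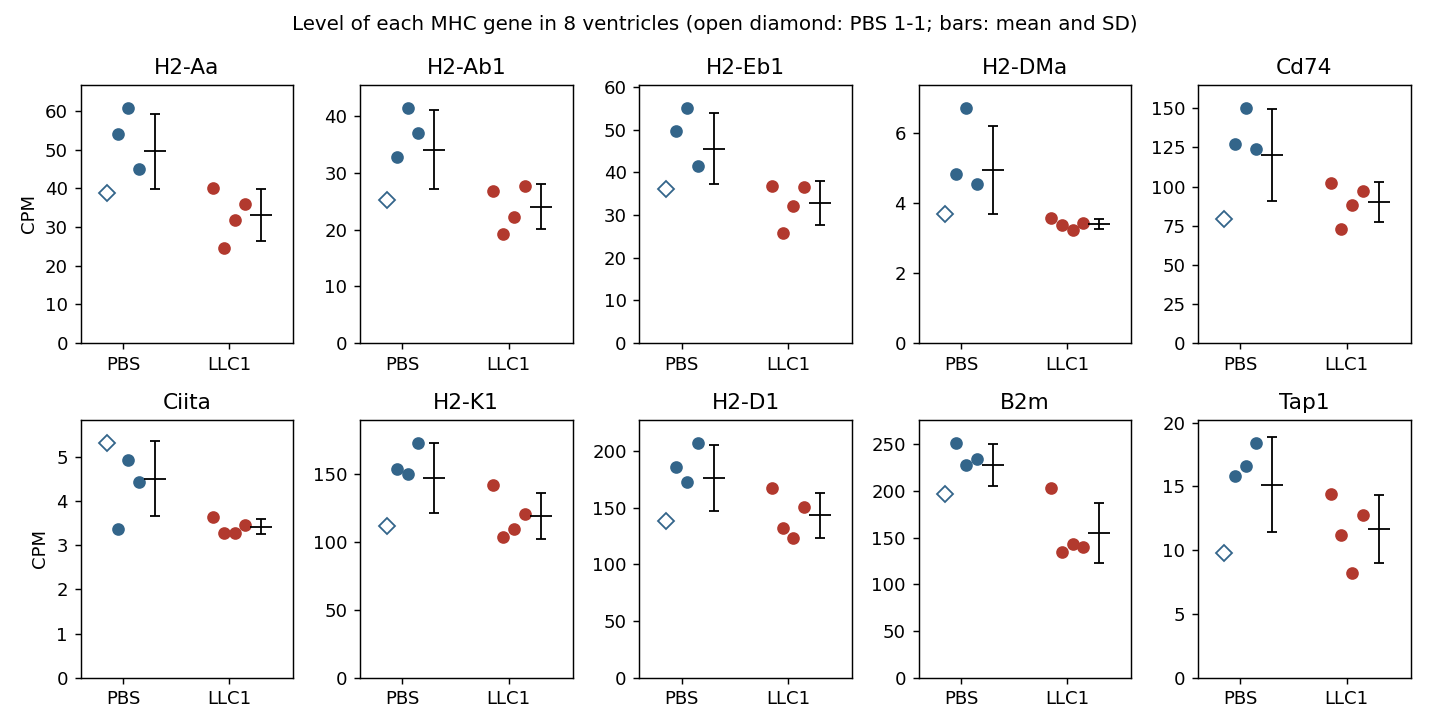
TMM-normalized CPM of each MHC gene (y axis, from 0, own scale per panel) in the 4 PBS and 4 LLC1 mice, 1 point per mouse, with PBS 1-1 as an open diamond and the mean and SD beside the points. PBS 1-1 is the lowest PBS point for 9 of 10 genes, and H2-DMa is the gene whose groups do not overlap.

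On the class I side, H2-K1 (chr17:33996017-34000333) and H2-D1 (chr17:35262730-35267499) encode the classical heavy chains of this strain. H2-K1 was at 142, 104, 110 and 121 CPM in LLC1 mice and at 112, 154, 150 and 173 CPM in PBS mice. H2-D1 was at 167, 132, 123 and 151 CPM in LLC1 mice and at 138, 186, 173 and 207 CPM in PBS mice. For both genes PBS 1-1 lay within the LLC1 range and the other 3 PBS mice lay above it. The changes were the smallest of the 10, with log2 fold changes of -0.31 (SE 0.13, edgeR FDR 0.149) for H2-K1 and -0.30 (SE 0.12, FDR 0.141) for H2-D1. Without PBS 1-1 they were -0.42 (FDR 0.0152) and -0.40 (FDR 0.0192). The ratio of H2-D1 to H2-K1 per base was 1.13 to 1.29 in LLC1 mice and 1.17 to 1.25 in PBS mice. The longest match between their transcripts was 251 bases at 95.2% identity. Each also matches other class I genes such as H2-Q7, so reads from these stretches may be divided between genes.

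B2m (chr2:122147686-122153083) encodes beta-2-microglobulin, the light chain of every class I molecule. It was at 203, 134, 143 and 140 CPM in LLC1 mice and at 197, 251, 228 and 234 CPM in PBS mice. LLC1 1-2 lay just above PBS 1-1 and far above the other 3 LLC1 mice. The means were 155 ± 32.0 and 227 ± 22.7 CPM (SD, n = 4 per group) and the fold was 0.681 with a 95% interval of 0.565 to 0.820. B2m had the lowest FDR of the 10 (log2 fold change -0.55, SE 0.12, edgeR FDR 0.0187), with an exact permutation p of 0.0571. The log2 fold change was -0.71 without LLC1 1-2 (edgeR FDR 0.00300) and -0.62 without PBS 1-1 (FDR 0.00595). The call was lost without LLC1 1-3, LLC1 1-5, LLC1 2-2 or PBS 1-3, with edgeR FDR 0.0645, 0.0596, 0.0560 and 0.0674.

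Tap1 (chr17:34187553-34197225) encodes a subunit of the pump that brings peptides into the endoplasmic reticulum. Its levels were 14.4, 11.2, 8.21 and 12.8 CPM in LLC1 mice and 9.78, 15.8, 16.6 and 18.4 CPM in PBS mice. PBS 1-1 was lower than 3 of the 4 LLC1 mice. The log2 fold change was -0.40 with a 95% interval of -0.82 to 0.02 (edgeR FDR 0.223), and -0.55 without PBS 1-1 (FDR 0.0328). Exons of Psmb9 on the opposite strand cover 3.87% of its exon bases in GENCODE M21.

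**Figure D2:**
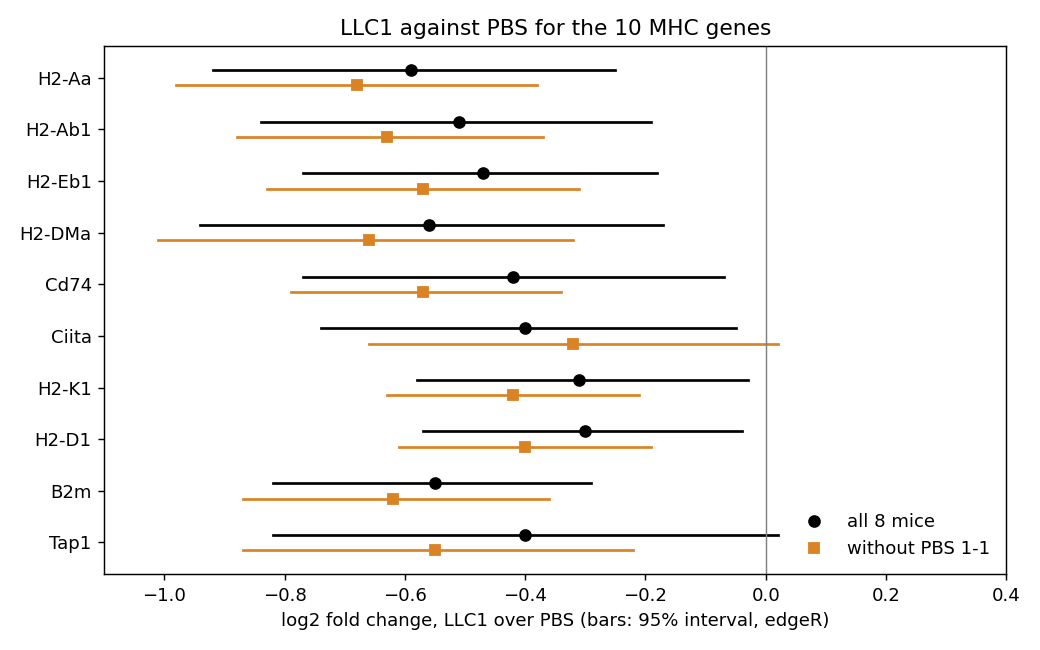
Log2 fold change of LLC1 over PBS (x axis) with its 95% interval for each MHC gene from edgeR, with all 8 mice as circles and without PBS 1-1 as squares. Every estimate lies below 0, and 9 of 10 move further from 0 when PBS 1-1 is left out.

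Levels of different genes were compared per kilobase of transcript. In PBS mice the order by mean CPM per kilobase was B2m (264), Cd74 (85.1), H2-D1 (68.3), H2-K1 (56.4), H2-Eb1 (38.5), H2-Aa (26.5), H2-Ab1 (20.9), H2-DMa (3.01), Tap1 (2.77) and Ciita (0.859). B2m stood clear of Cd74, H2-Ab1 of H2-DMa, and Tap1 of Ciita, whereas all other neighbours had overlapping ranges. In LLC1 mice the order was the same except that Tap1 (2.13) and H2-DMa (2.07) changed places, a pair whose ranges overlapped. The ratio of B2m to the sum of H2-K1 and H2-D1 per base was 1.55 to 1.98 in LLC1 mice and 1.86 to 2.37 in PBS mice, again with overlap.

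Wider antigen presentation genes were taken from a list of 49 in 6 roles, of which 45 could be tested. Of these, 4 fell and 1 rose, or 11.1% against 8.73% of all genes, and the median log2 fold change was -0.10. Without PBS 1-1, 9 fell and 2 rose, against 11.9% of all genes.

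Class II processing genes gave no call in 6 tested by edgeR. All 6 estimates were below 0, with a median of -0.57. An unadjusted p under 0.05 was found for 4 of the 6, against 4103 of all 16111 genes tested. Ctss, the protease that trims the invariant chain, had a log2 fold change of -0.53 (edgeR FDR 0.0621), and H2-DMb1, which encodes the partner chain of H2-DMa, -0.61 (FDR 0.134). These 2 genes passed without PBS 1-1 (FDR 0.00820 and 0.0470). H2-Oa and H2-Eb2 were too low to test.

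None of the 8 promoter factors passed the edgeR test. An unadjusted p under 0.05 was found for 2 of them, against 4103 of all 16111 genes tested. The estimates for Rfx5, Rfxap and Rfxank, the 3 subunits of the RFX complex, were 0.04, -0.18 and 0.19, and those for the NF-Y genes Nfya, Nfyb and Nfyc lay between -0.10 and 0.09. Nlrc5 was at -0.50 (edgeR FDR 0.123), and passed without PBS 1-1 (-0.60, FDR 0.0487).

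Of the 7 class I loading genes only Pdia3 changed, or 14.3% against 8.73% of all genes tested. Pdia3, a disulfide isomerase of the peptide loading complex that also folds other glycoproteins, was at 145, 130, 133 and 125 CPM in LLC1 mice and at 202, 212, 176 and 160 CPM in PBS mice. Every LLC1 mouse was below every PBS mouse (log2 fold change -0.49, SE 0.09, edgeR FDR 0.00833), and the call held with each mouse left out. Tap2, the partner of Tap1, was at 0.03 with a 95% interval of -0.18 to 0.25, and Tapbp, which encodes tapasin, at 0.07 (-0.09 to 0.22).

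In the immunoproteasome, Psmb10 rose, with 46.0, 41.7, 41.5 and 40.9 CPM in LLC1 mice and 34.1, 33.3, 35.8 and 33.5 CPM in PBS mice. No LLC1 mouse overlapped the PBS range (log2 fold change 0.31, SE 0.07, edgeR FDR 0.0143), and the call was lost without PBS 1-3 (FDR 0.0581) and, with every mouse, when libraries were scaled to total counts only (FDR 0.0566). The other catalytic subunits, Psmb8 and Psmb9, were at -0.03 and -0.11 and did not pass.

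Of the 9 nonclassical class I genes only H2-Q7 fell, or 11.1% against 4.61% of all genes tested. H2-Q7 went from 19.0 ± 6.23 to 9.91 ± 2.19 CPM (SD, n = 4 per group, log2 fold change -0.95, SE 0.23, edgeR FDR 0.0248). PBS 1-1, at 10.2 CPM, lay within the LLC1 range of 8.04 to 12.8. The H2-Q7 call was lost without LLC1 1-3, LLC1 1-5, LLC1 2-2, PBS 1-3 or PBS 2-1, with edgeR FDR 0.0792, 0.0765, 0.0558, 0.0803 and 0.0534, and with robust empirical Bayes (0.0574). Without PBS 1-1 H2-Q7 was at -1.15 (FDR 0.000503). The neighbouring copy H2-Q6 was at -0.96 (FDR 0.0719) and passed without PBS 1-1 (-1.18, FDR 0.00618) and without LLC1 1-2 (FDR 0.0473). Both are close copies of other class I genes, and their separate counts are uncertain. H2-Q4 was at -0.48 (FDR 0.136) and also passed without PBS 1-1 (-0.63, FDR 0.0151). In that comparison 3 of the 9 were lower, against 6.38% of all genes.

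The interferon-gamma axis was represented by 10 tested genes, and 2 of them fell, against 4.61% of all genes. Cxcl9, a chemokine induced by interferon-gamma, was at 2.38, 1.38, 2.24 and 3.02 CPM in LLC1 mice and at 5.66, 8.13, 7.30 and 8.44 CPM in PBS mice. The groups were far apart (log2 fold change -1.70, SE 0.21, edgeR FDR 0.00105), and the call held with each mouse left out. Irf8, a transcription factor of dendritic cells and macrophages, was at 6.09, 5.53, 3.39 and 5.48 CPM in LLC1 mice and at 7.04, 8.34, 9.12 and 8.15 CPM in PBS mice, also without overlap (-0.68, SE 0.17, FDR 0.0277). Leaving out LLC1 1-3, LLC1 2-2, PBS 1-3 or PBS 2-1 ended the Irf8 call, with edgeR FDR 0.0615, 0.0545, 0.0777 and 0.0720. Irf1, Gbp2 and Cd274, which interferon-gamma is also known to induce, were at -0.14, -0.05 and -0.10 and did not pass, beside -0.40 for Ciita and Tap1 and -0.50 for Nlrc5, which did not pass either. Ifng itself had at most 1 count in any mouse and 0 in all LLC1 mice, so a difference in it was not detectable at this depth.

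**Figure D3:**
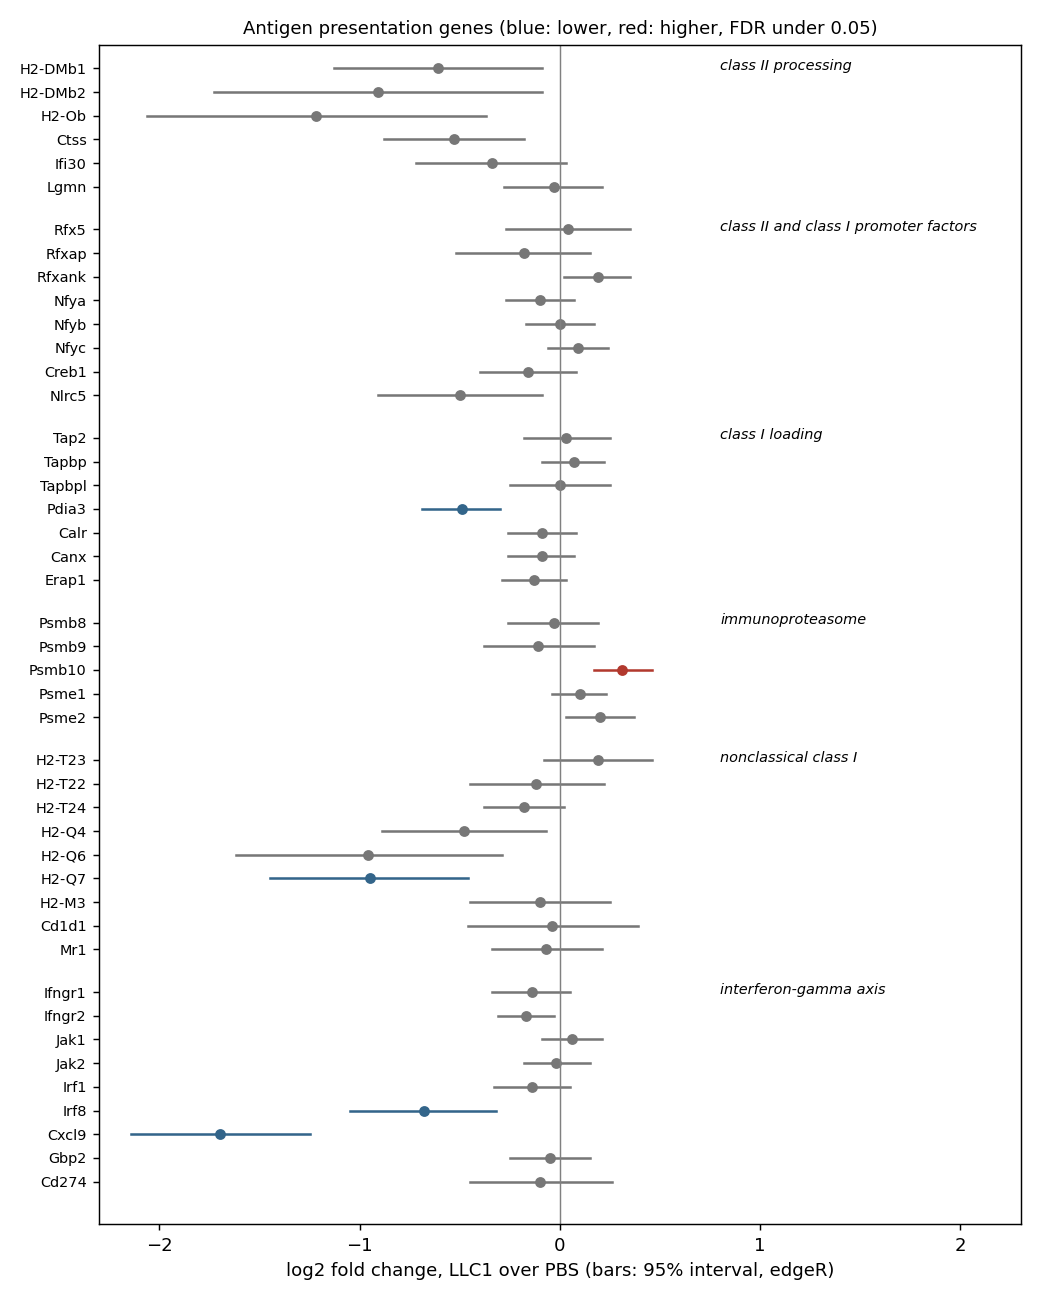
Log2 fold change of LLC1 over PBS (x axis) with its 95% interval from edgeR for the antigen presentation genes described, grouped by role. Pdia3, H2-Q7, Irf8 and Cxcl9 are lower and Psmb10 is higher at an FDR under 0.05.

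Marker genes of the cells that make MHC molecules were measured in the same libraries. Their counts are to be read against the 4.61% of all genes that were lower with every mouse and the 6.38% without PBS 1-1. All 5 leukocyte markers were below 0 and 4 fell (Ptprc -0.77, Laptm5 -0.46, Cd53 -0.69 and Cd52 -0.77 on the log2 scale), with a summed level of 39.9 to 42.9 CPM in LLC1 mice and 45.8 to 63.4 CPM in PBS mice. Of 4 dendritic cell markers that could be tested, among 9 listed, Zbtb46 (-0.50) and Itgax (-1.08) fell, and the sum was 26.0 to 30.4 CPM against 34.5 to 41.0 CPM. Clec9a (-0.47, FDR 0.157) and Clec10a (0.23, FDR 0.520) did not pass. Much of that sum was Zbtb46, which endothelial cells also express, and without it the sum was 7.90 to 8.96 CPM in LLC1 mice and 7.98 to 11.7 CPM in PBS mice, which overlapped through PBS 1-1. The leukocyte sum and the full dendritic cell sum did not overlap between groups. Without PBS 1-1 the same numbers fell, 4 of 5 leukocyte and 2 of 4 dendritic cell markers, and the PBS sums began at 59.8 and 37.7 CPM.

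Of 15 macrophage markers, Mrc1 (-0.42), Cx3cr1 (-1.08) and Ccr2 (-0.99) fell, and the sum was 259 to 327 CPM in LLC1 mice and 276 to 396 CPM in PBS mice. Without PBS 1-1, 6 of the 15 fell. Of 6 endothelial markers, Kdr (-0.61) and Emcn (-0.31) fell, and 5 fell without PBS 1-1, with sums of 768 to 897 CPM and 892 to 1174 CPM. B cell markers summed to 1.25 to 2.05 CPM against 1.68 to 4.12 CPM, and T and NK cell markers to 1.19 to 1.72 CPM against 1.29 to 2.72 CPM, and the 1 marker of each list that could be tested did not pass. Of the 6 neutrophil markers 3 could be tested, and S100a8 (1.76) and S100a9 (1.72) rose, against 4.12% of all genes that were higher. Csf3r was at 0.48 (edgeR FDR 0.389) and did not pass, while Ly6g, Cxcr2 and Retnlg were too low to test. The neutrophil sum was 3.47 to 6.58 CPM in LLC1 mice and 1.24 to 3.17 CPM in PBS mice. No marker was at 0 in every mouse. Of the markers named, Ptprc, Zbtb46, S100a9 and Kdr passed with each of the 8 mice left out in turn, and the others were lost in 3 to 7 of the 8 comparisons. With every mouse, 1 or more alternatives also ended the calls of Laptm5 (FDR up to 0.0633), Cd52 (0.0505), Cx3cr1 (0.0675) and Itgax (0.0593).

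The tissue was heart muscle by its own markers, which summed to 80848 to 86738 CPM in LLC1 mice and 72575 to 74638 CPM in PBS mice, and only Myh6 of the 5 rose (0.24), with a median log2 fold change of 0.03 for the list. Without Myh6 the sum was 26921 to 30278 CPM in LLC1 mice and 27032 to 27924 CPM in PBS mice, and the groups overlapped. Of the 5 fibroblast markers, Lum (-0.62) and Col1a1 (-0.60) fell. Lum passed with each mouse left out, Myh6 in 4 of 8 such comparisons and Col1a1 in 1. With every mouse, alternatives also ended the calls of Myh6 (FDR up to 0.124) and Col1a1 (0.101).

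The 6 class II genes together reached 149 to 213 CPM in LLC1 mice and 188 to 318 CPM in PBS mice, and the 4 class I genes 381 to 525 CPM and 457 to 632 CPM. The overlap of both sums, and of the macrophage and endothelial sums, rested on PBS 1-1. The next lowest PBS mouse was at 257 CPM for class II, 568 for class I, 334 for macrophage and 1064 for endothelial genes, in each case above all 4 LLC1 mice. Divided by the leukocyte sum, class II came to 3.72 to 4.96 in LLC1 mice and 4.11 to 5.05 in PBS mice, and divided by the macrophage sum to 0.517 to 0.790 and 0.649 to 0.879. Class I over the leukocyte sum was 10.4 ± 1.26 in LLC1 mice and 9.78 ± 0.663 in PBS mice (SD, n = 4 per group), and over the endothelial sum 0.458 to 0.684 and 0.513 to 0.570. All 4 of these ratios overlapped between groups, with and without PBS 1-1. The part of these cell types in the lower MHC levels was not tested.

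**Figure D4:**
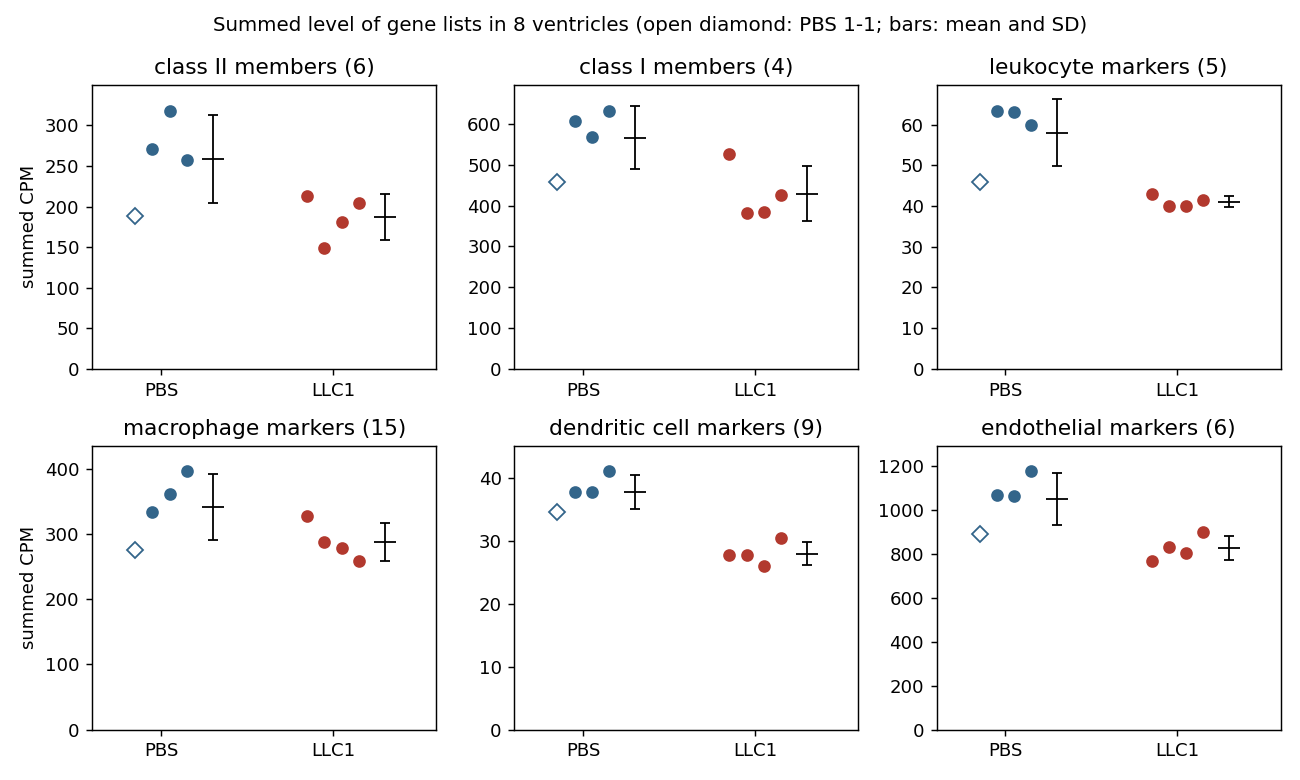
Summed CPM (y axis, from 0, own scale per panel) of the class II and class I genes and of 4 marker lists in the 4 PBS and 4 LLC1 mice, 1 point per mouse, with PBS 1-1 as an open diamond and the mean and SD beside the points. The leukocyte and dendritic cell sums do not overlap between groups, and the other 4 overlap only through PBS 1-1.

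Long genes were also lower relative to short genes in LLC1 mice. The median centred log2 level of genes of 5451.5 bases or longer minus that of genes up to 1830 bases was -0.19 to -0.02 in LLC1 mice and 0.04 to 0.11 in PBS mice. With offsets that remove this trend, a setting added after the data were seen, the median of the 10 MHC genes was -0.51 and 4 were lower: H2-Aa (edgeR FDR 0.0310), B2m (0.00454), H2-Ab1 (0.0407) and H2-Eb1 (0.0317). With these offsets 692 of all 16111 genes tested were lower. The meaning of the first number of the replicate code is not stated in the labels. With that number as a covariate 3 of the 10 genes were lower, H2-Aa, B2m and H2-Ab1 (-0.41, edgeR FDR 0.0455). Of all 16111 genes tested, 835 were lower with this covariate. Ratios of group means for all 10 genes were below 0 on the log2 scale among mice coded 1 (-0.53 to -0.17, 3 LLC1 and 2 PBS mice) and among mice coded 2 (-0.72 to -0.34, 1 and 2 mice).

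The MHC genes were then set against their neighbours on chromosome 17, between the start of H2-K1 and the end of H2-D1, a span of 1.27 megabases that holds 7 of the 10. Of 134 genes listed there, 76 were tested, and 9 changed, or 11.8% against 8.73% of all genes. H2-Aa was the 1 gene that fell, and 8 genes outside the 10 rose. C4b (1.15, SE 0.17, edgeR FDR 0.00284) and C4a (0.99, FDR 0.0180), near-identical genes of complement component C4 whose counts may be mixed, changed most, followed by Abhd16a (0.41), Gm20460 (0.37), Ppt2 (0.34), Vwa7 (0.30), Bag6 (0.30) and Gm20427 (0.20). C4b and Abhd16a passed with each of the 8 mice left out, C4a passed in 6 of these comparisons, Ppt2 in 5, Gm20460 in 4, Bag6 in 3, Gm20427 in 2 and Vwa7 in 1. In the interval 2 genes were higher without LLC1 1-3, 3 without LLC1 1-2 or LLC1 1-5, and 3 with total counts only. The 69 neighbours outside the 10 had a median log2 fold change of 0.08. Without PBS 1-1, 12 of these 69 changed, 3 lower and 9 higher, against 6.38% lower and 5.56% higher of all genes then tested. All 7 MHC genes of the interval were lower in that comparison.

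**Figure D5:**
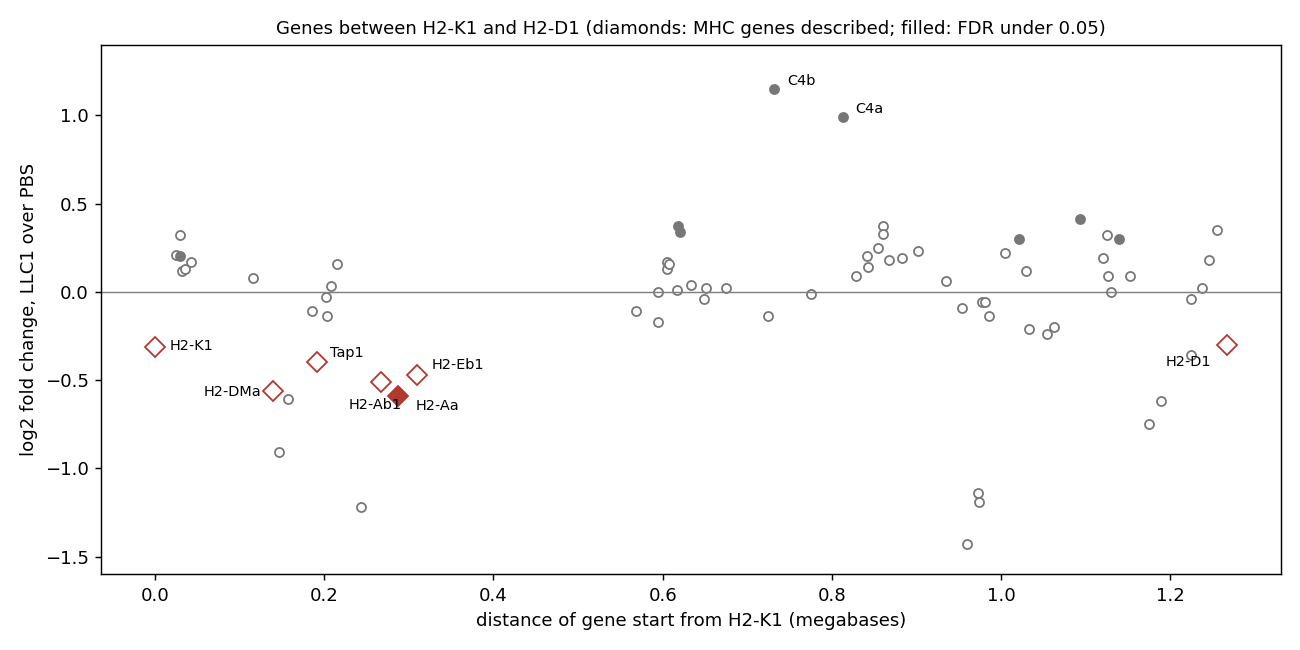
Log2 fold change of LLC1 over PBS (y axis) against distance from the start of H2-K1 in megabases (x axis) for the 76 tested genes up to H2-D1, with the MHC genes described here as diamonds and filled symbols for an FDR under 0.05. The 7 diamonds lie between -0.59 and -0.30, and C4b and C4a lie highest.

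Likeness of pattern was measured as the mean absolute difference over the 8 mice between log2 CPM values centred on each gene's mean. Closest to the mean of H2-Aa, H2-Ab1, H2-Eb1 and Cd74 were, outside the 10, Fcer1g (0.07), then Il16, Dennd1c, C7 and Cass4 (0.09 each). The median over all genes tested was 0.32, and a gene at the same level in every mouse would be at 0.28. Ciita, at 0.25, was rank 2173, so its pattern over the mice was hardly closer to the class II genes than a flat one. Outside the 10, Tspyl3 and Abcc3 (0.05 each), Zfp354c (0.06), Vav1 and Meox2 (0.07 each) were closest to the mean of H2-K1, H2-D1 and B2m. The median there was 0.28 and the flat value 0.25. Among 16111 genes over 8 mice such values are a description only.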

How the data were processed

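RNA was measured in the ventricles of 4 LLC1 and 4 PBS mice. The authors deposited raw read counts per gene for each mouse, made from 150-base paired-end TruSeq reads mapped to mm10, and the submitters' processing notes name CASAVA, STAR and featureCounts without versions. Annotation release, strand and multiple-mapping settings were not given in the sources used here. Symbols, positions and lengths are those of the deposited table. Adgre1 was matched by gene ID. The value of 1 gene of the presentation list is not reported here, while counts over the list include it.

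Counts were filtered with filterByExpr (16111 genes), scaled by TMM, and compared with the quasi-likelihood F-test of edgeR 4.0.16 in R 4.3.3, with Benjamini-Hochberg adjustment over all genes tested and an FDR under 0.05 taken as a call. SE is the absolute log2 fold change divided by the square root of F. Log2 CPM values (prior count 2) were used for principal components and likeness. The exact permutation test used the difference in mean log2 CPM. Alternatives used DESeq2 1.42.0, limma 3.58.1, other normalizations and filters, the replicate code as a covariate, offsets for gene length (loess span 0.3), and each mouse left out in turn. Named genes are the 10 MHC genes, the genes of the presentation list, markers and neighbours that passed (the neutrophil and dendritic cell markers that did not pass were named after their values were seen), and the 5 nearest genes in pattern for each class. The MHC genes and all lists were chosen with earlier results of these data known. Similar transcripts were searched with BLAST 2.17.0 (at least 95% identity over 150 bases) in GENCODE M21. The fit was tested on simulated data. P-values set the difference between the groups against the spread between these mice. Figures used matplotlib 3.10.9.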

Additional observations from a re-analysis of the deposited data

Results flagged for a closer look

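B2m in the LLC1 group had 1 mouse far from the others: LLC1 1-2 was at 203 CPM and the other 3 at 134 to 143 CPM, so its gap to the next mouse was 0.875 of the group's range, above Dixon's 95% limit for 4 samples. It was the only such value in the 20 groups examined (10 genes in 2 groups), and chance gives about 1 in 20. LLC1 1-2 also had the lowest level of long relative to short genes (-0.19), and the part of this in its B2m level was not tested.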

How the results depend on the processing

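All 10 MHC genes had a log2 fold change below 0 under all 9 alternatives with every mouse and with each mouse left out. The number lower in LLC1 mice was 2 in the main comparison, 4 with all genes of at least 1 count, 4 with DESeq2, 4 with offsets for gene length (added after the data were seen), 3 with a covariate for the replicate code (H2-Ab1 added, FDR 0.0455) and 1 with robust empirical Bayes, where H2-Aa had an FDR of 0.0631. In the same order, 743, 740, 847, 692, 835 and 772 of all genes were lower. The setting with at least 1 count tested 27383 genes and the others 16111. The cause of the differences between settings was not tested. Leaving out 1 mouse gave 0 to 9 MHC genes, 2 to 11 presentation genes (5 with every mouse), 6 to 23 markers (16), 2 to 19 genes of the MHC interval (9) and 542 to 1949 of all genes (1406), with the highest count of each without PBS 1-1 and the lowest for all genes without PBS 1-3. With total counts only, 4 genes of the interval were called, and 22.1% of all calls were higher in LLC1 mice against 47.2% in the main comparison, while the median of all genes moved by -0.06. No result reversed. No paired analysis was possible because the groups share only 1 replicate code, carried by different animals. With 4 mice per group the exact permutation test cannot go below 0.0286, and Ciita and H2-DMa, near 3 to 7 CPM, carry the fewest counts.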
